A study of Canis lupus familiaris with 11 samples.

Results

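Laminins are trimers of the basement membrane, the protein sheet under an epithelium, and many of them are cross-shaped. Each trimer holds an alpha, a beta and a gamma chain that join in a coiled coil inside the cell. The N-terminal ends of the chains link many of these trimers into a network. The G domains at the end of the alpha chain bind receptors on the cell, chiefly integrins and dystroglycan. LAMA3 and LAMB3 are chains of the trimer that anchors hemidesmosomes. LAMA5 pairs with LAMB1 or LAMB2 and with LAMC1 in kidney, and LAMA1 with LAMB1 and LAMC1 in the early embryo.

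The genes described are 7 laminin chains, LAMA1, LAMA3, LAMA5, LAMB1, LAMB2, LAMB3 and LAMC1, taken by symbol from a table of 26178 rows. They held 11 rows, since LAMA5 was split over 4 and LAMB1 over 2, and 10 of these rows were among the 13560 with enough counts to test. RNA was measured in MDCKII cells, a line of dog kidney epithelium that grows as a polarised sheet, and in LMNA knockout (KO) cells derived from it. LMNA encodes lamins A and C, which line the inside of the nuclear envelope. The 4 groups were wild-type (WT) control with 3 libraries, WT compressed with 3, KO control with 2 and KO compressed with 3. All cells were cultured for 3 to 4 d, to confluence, in the same medium with serum. The compressed groups then underwent lateral compression and 2 h of recovery. The labels do not say how the sheet was compressed, whether the controls were handled in parallel, or from how many clones the KO cells came. The labels call the samples replicates without saying that they came from separate cultures, so p-values measure only how these samples vary, and that variation may be technical. In bulk RNA of this kind, fewer cells of a kind and less RNA per cell cannot be told apart.

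Libraries held 10420214 to 17999623 counts. LMNA was at 112 to 201 FPKM (fragments per kilobase of gene per 1000000 counts) in the 6 WT libraries and at 4.14 to 8.44 FPKM in the 5 KO libraries, and fell by 4.38 on the log2 scale in KO control against WT control (adjusted p = 1.6e-05, edgeR). Of 9 epithelial markers, 8 averaged at least 1 FPKM, against 1 of 11 for fibroblasts and smooth muscle (MYH11 at 2.17 FPKM, with DCN and LUM at 0), 0 of 7 found for endothelium (ERG and EMCN at 0) and 2 of 8 for immune cells (PTPRC and CD3E at 0). WT compressed replicate 3 and KO compressed replicate 2 stood apart in the number of genes detected, with counts for 14218 and 14101 genes against 15109 to 15925 in the other libraries. In these 2 libraries the 2733 genes of the most gene-dense regions (at least 53 coding genes within 1 Mb) had a median log2 deviation from their mean over all libraries of -0.36 and -0.43. The same median was 0.06, 0.41 and 0.21 in the WT controls, -0.15 and -0.03 in the other WT compressed libraries, and 0.07 to 0.16 in the other KO libraries, so it moved with compression in WT cells. For compression in WT cells, values corrected for it are given below for LAMB3 and LAMA5, and for the other genes named where the correction ended a call or moved the log2 change by over 1.5 times. WT control replicate 1 also differed from its replicates. The chi-square of the counts per gene was 72.1 against replicate 2 and 45.1 against replicate 3, and 14.3 between replicates 2 and 3. The KO compressed libraries differed from one another about as much. There it was 64.9 between replicates 1 and 2, 34.8 between 1 and 3, and 54.2 between 2 and 3. It was 5.86 to 21.7 within WT compressed and 8.63 within KO control.

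LAMB3, the beta chain of the hemidesmosomal trimer, had the highest level of the 7 chains in resting WT cells, at 105 ± 14.8 FPKM (SD, n = 3). It lies on chromosome 7 at 8272736 to 8310437 of the CanFam3.1 build, minus strand, and was named by its protein match. LAMB1, the most widely expressed beta chain, followed at 78.9 ± 2.34 FPKM and did not overlap with it. LAMA5, with its 4 rows summed, averaged 56.4 ± 6.41 FPKM. LAMC1, the gamma chain of most trimers, stood at 43.0 ± 8.73 FPKM and overlapped with both LAMA5 above it and LAMA3 below it. LAMA3 averaged 28.3 ± 13.9 FPKM, an average raised by WT control replicate 1. LAMB2, the beta chain of mature kidney and muscle basement membranes, was the lowest of the members detected at 15.8 ± 0.809 FPKM, with every library below those of LAMA3. These levels are per length of the authors' gene models, so they can be compared between genes only as far as those models are complete.

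LAMA1, on chromosome 7 at 73307183 to 73438713 (minus strand), had 0 counts in all 11 libraries. With 155748390 counts in all, a floor of 3 counts allows a level of up to 0.0193 CPM, counts per 1000000 (counting error only). RNA was thus detected for 6 of the 7 chains, while LAMA1 was not detectable at this depth.

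**Figure D1:**
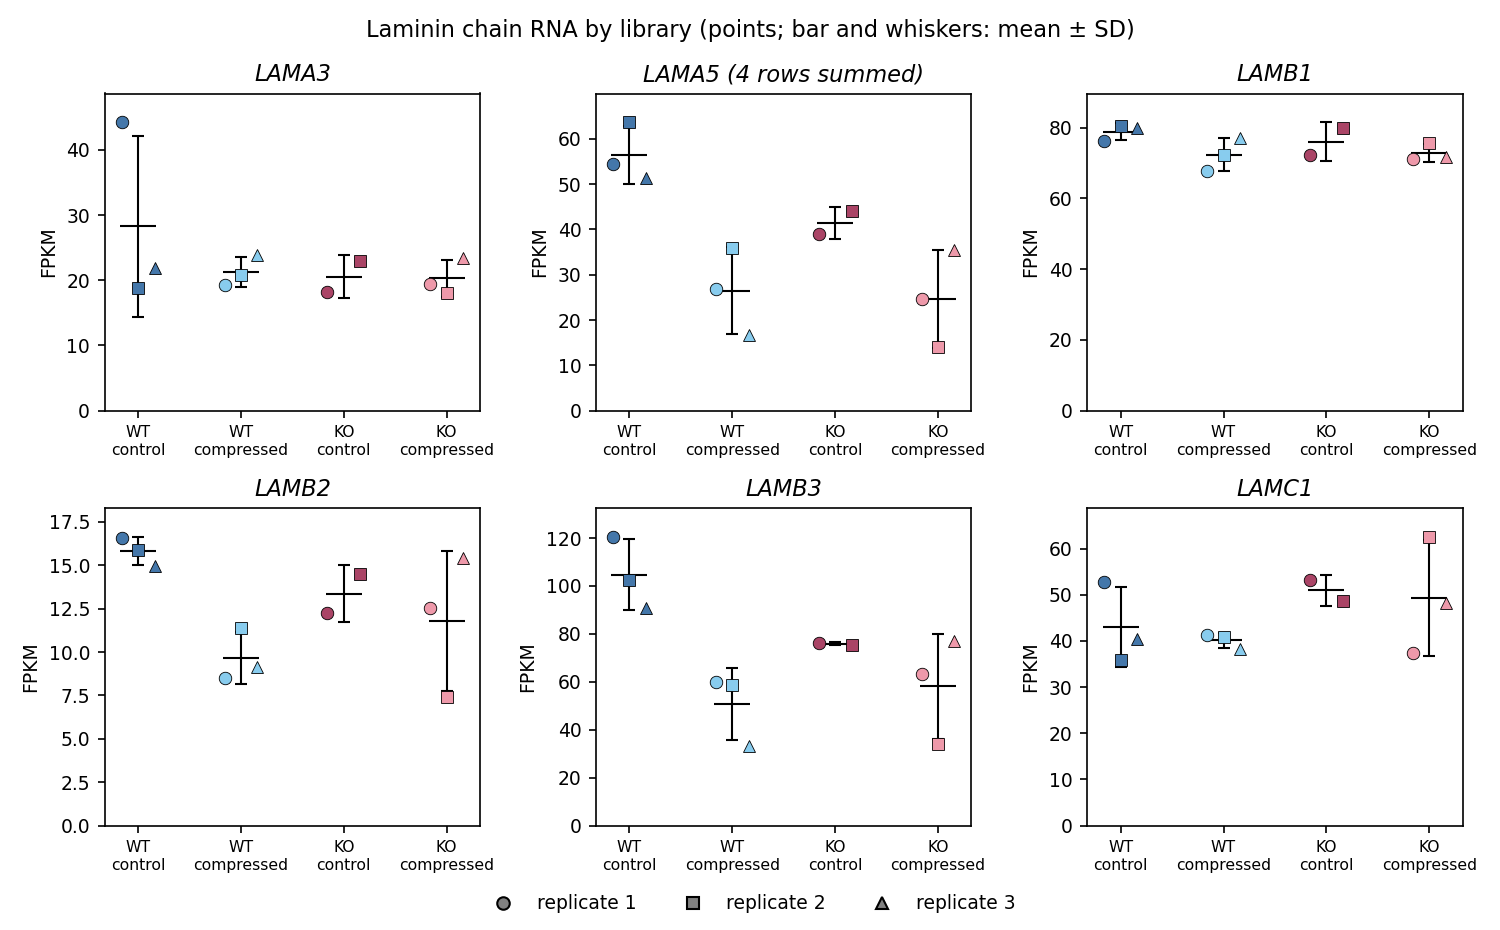
FPKM (vertical axis, linear from 0) of 6 laminin chains in each library of the 4 groups; symbols give the replicate number, the horizontal bar the mean and the whiskers the SD. LAMA5 and LAMB3 have every WT compressed library below every WT control library, while LAMB1 lies between 67.8 and 80.5 FPKM in all 11 libraries.

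LAMB3 fell after compression in WT cells. Its level was 120, 102 and 90.9 FPKM in WT control replicates 1 to 3 and 59.9, 58.7 and 33.2 FPKM in WT compressed replicates 1 to 3. Every compressed library lay below every control library, and replicate 3 of the compressed group was the lowest. The log2 fold change was -1.03 ± 0.27 (SE), or 0.490-fold, with an adjusted p of 0.0467 by edgeR's quasi-likelihood test with Benjamini-Hochberg adjustment over all genes. The call sat close to the threshold of 0.05, as did every call in this comparison, where the smallest adjusted p was 0.041. It was lost when any of the 3 WT control, 3 WT compressed or 2 KO control libraries was left out (adjusted p 0.0561 to 0.197), with the log2 change staying between -1.17 and -0.80. The LAMB3 call was also lost in edgeR with library size alone (adjusted p = 0.0504) or a replicate block (0.111). By limma the adjusted p was 0.0632 on log2(FPKM + 1) and 0.0675 on log2(FPKM + 0.1). LAMB3 has 12 coding genes within 1 Mb, and after correction for local gene density its log2 change was -1.20 (adjusted p = 0.045).

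LAMA5, the alpha chain of most adult epithelial basement membranes, was not counted as 1 gene in the deposited table. Its N-terminal domain, by which trimers join their neighbours, belonged to a row on chromosome 24 from 45794449 to 46537627 (minus strand), a span of 743.2 kb with 17 other rows inside it. The G domain, which binds receptors, belonged to a second row at 46315559 to 46318220 on the same strand. Domain IV, a globule within the short arm, and domain I, part of the coiled coil, each matched a row that the authors assembled on an unplaced scaffold. All 4 were assigned by protein match, and reads may be split between them or shared with the rows inside the long span, so single rows are uncertain.

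All 4 LAMA5 rows were lower in each WT compressed library than in each WT control. The N-terminal domain row was at 47.9, 52.6 and 47.1 FPKM in WT controls and at 26.9, 33.5 and 14.8 FPKM in WT compressed libraries, in the order of the replicate numbers. The G domain row was at 76.6, 99.5 and 69.0 FPKM and then 33.2, 47.9 and 24.4 FPKM. WT compressed replicate 3 was the lowest of the 6 libraries in each of the 4 rows. The domain IV row fell by 1.08 ± 0.26 (SE) on the log2 scale (adjusted p = 0.0431, edgeR). The log2 change was -1.16 ± 0.37 for the domain I row (adjusted p = 0.0682), -1.20 ± 0.34 for the G domain row (0.0523) and -0.96 ± 0.29 for the N-terminal domain row (0.0579), none of them called. With the 4 rows summed into 1 gene before the fit, an alternative chosen after seeing the data, LAMA5 went from 54.4, 63.6 and 51.3 FPKM to 26.7, 35.8 and 16.6 FPKM, a log2 change of -1.08 ± 0.30 with an adjusted p of 0.0497. The call of the domain IV row was lost when WT control replicate 2 or 3, any WT compressed library or either KO control library was left out (adjusted p 0.0501 to 0.190). Corrected for local gene density, the log2 change was -0.79 for the N-terminal domain row (adjusted p = 0.0618) and -0.93 for the G domain row (adjusted p = 0.0568). The scaffold rows have no neighbours to count, and what part gene density has in the change was not tested.

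The level of the G domain row over that of the N-terminal domain row ran from 1.12 (KO compressed replicate 2) to 2.21 (KO compressed replicate 1). It averaged 1.65 ± 0.218 (SD, n = 3) in WT controls and 1.44 ± 0.206 in WT compressed libraries, and the groups overlapped. The ends of the transcript, as far as these rows stand for them, thus did not separate the groups.

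**Figure D2:**
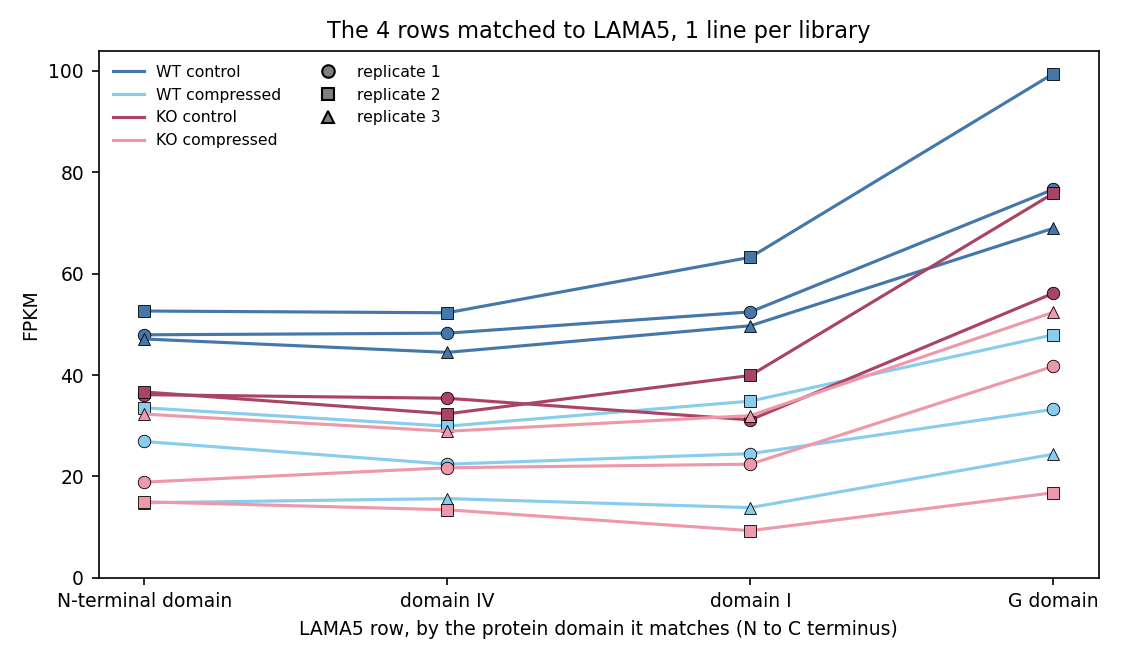
FPKM (vertical axis) of the 4 rows matched to LAMA5, ordered from the N to the C terminus of the protein, with 1 line per library coloured by group. All WT control lines lie above all WT compressed lines at each of the 4 rows, and the lines of WT compressed replicate 3 and KO compressed replicate 2 lie lowest.

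LAMB2, on chromosome 20 at 40050300 to 40062516 (plus strand), was at 16.6, 15.9 and 15.0 FPKM in WT controls and at 8.51, 11.4 and 9.11 FPKM in WT compressed libraries. The groups did not overlap, and the log2 change of -0.69 ± 0.23 (SE) had an adjusted p of 0.0692 (edgeR). LAMB2 has 66 coding genes within 1 Mb, the most of the members, and its change was -0.29 (adjusted p = 0.264) after correction for local gene density.

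LAMA3, LAMB1 and LAMC1 did not pass the test. LAMA3 (chromosome 7 at 64405533 to 64655273, minus strand) was at 44.2, 18.8 and 21.9 FPKM in WT controls and at 19.2, 20.8 and 23.8 FPKM in WT compressed libraries. WT control replicate 1 alone was high, and the log2 change of -0.40 ± 0.26 (SE; adjusted p = 0.305, edgeR) became 0.08 without it. LAMB1 (chromosome 18 at 12634661 to 12700157, plus strand) was at 76.2, 80.5 and 79.9 FPKM and then 67.8, 72.2 and 77.1 FPKM. Its groups overlapped, and its log2 change of -0.11 ± 0.12 had a 95% interval of -0.37 to 0.15. LAMC1 (chromosome 7 at 16406353 to 16529051, plus strand) was at 52.8, 35.9 and 40.4 FPKM and then 41.3, 40.8 and 38.3 FPKM. Its log2 change of -0.09 ± 0.19 (95% interval -0.49 to 0.32) became 0.09 without WT control replicate 1. The second LAMB1 row, upstream of the first at 12614262 to 12632338, held 1 to 99 counts a library, too few to set beside the first, with a log2 change of -1.23 ± 0.68 (adjusted p = 0.227).

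In all, 2 of the 10 rows tested were called in WT cells after compression, both lower. Over all genes 6.25% were called in either direction and 2.40% were called lower. All libraries of the compressed group lay below all controls for 7 of the 10 rows, 4 of them LAMA5, against 20.8% of all genes tested. The median log2 change was -0.99 over the members' rows and -0.02 over all genes. The rows of LAMA5 count 1 gene 4 times, so these counts and the members' median are not of independent genes. The median also takes in the upstream LAMB1 row, which had few counts. Taken once per gene, the log2 change was -1.08 for LAMA5 with its rows summed, -1.03 for LAMB3 and -0.69 for LAMB2. It was -0.40 for LAMA3, -0.11 for the main LAMB1 row and -0.09 for LAMC1.

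**Figure D3:**
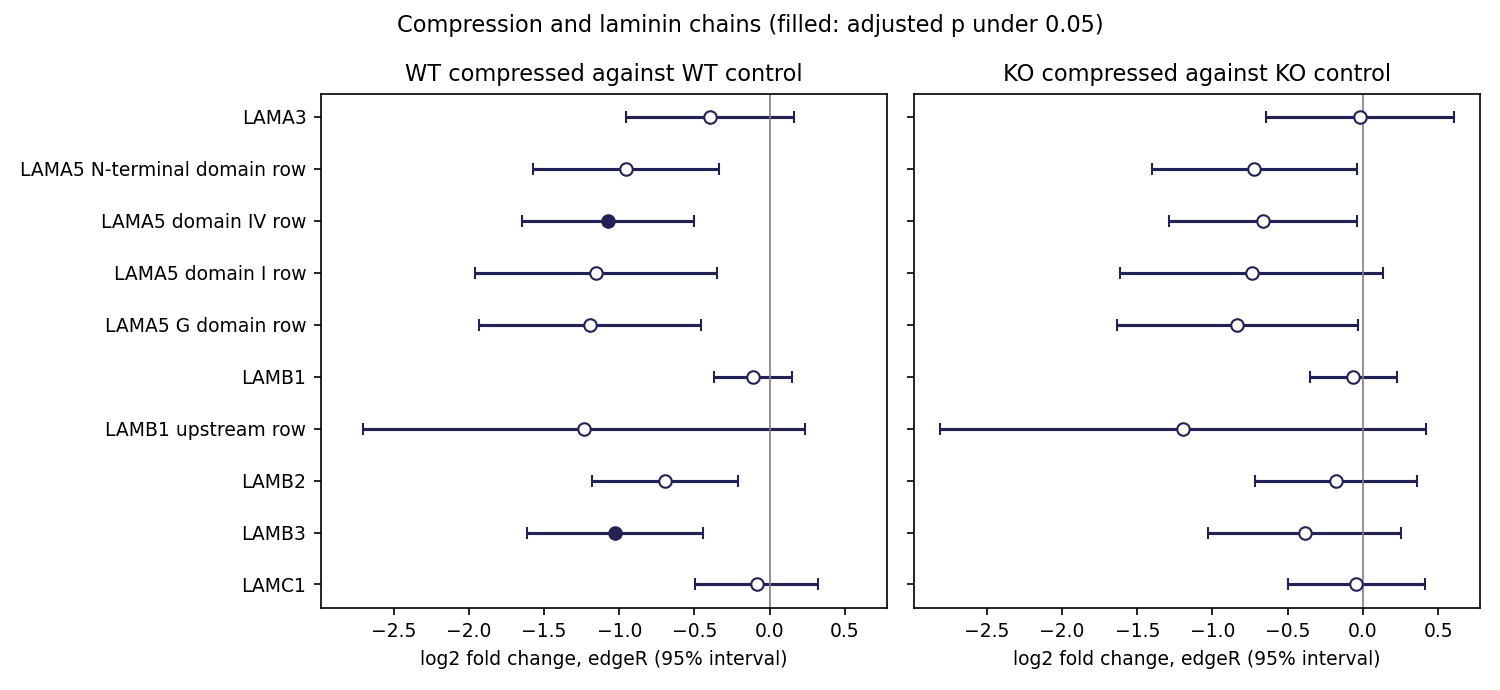
Log2 fold change (horizontal axis) with its 95% interval for the 10 laminin rows tested, in WT cells on the left and KO cells on the right; filled points have an adjusted p under 0.05. The rows of LAMA5 and LAMB3 lie near -1 in WT cells with 2 of them filled, LAMB1 and LAMC1 lie near 0 in both genotypes, and no point is filled in KO cells.

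Among the 10 rows in WT cells, leaving out a single library turned the direction of LAMA3 and LAMC1 alone. Without WT compressed replicate 3, the lowest library for LAMB3 and LAMA5, the log2 change was -0.80 for LAMB3, -0.69 for the N-terminal domain row of LAMA5 and -0.99 for its G domain row (adjusted p 0.197 to 0.226, edgeR).

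**Figure D4:**
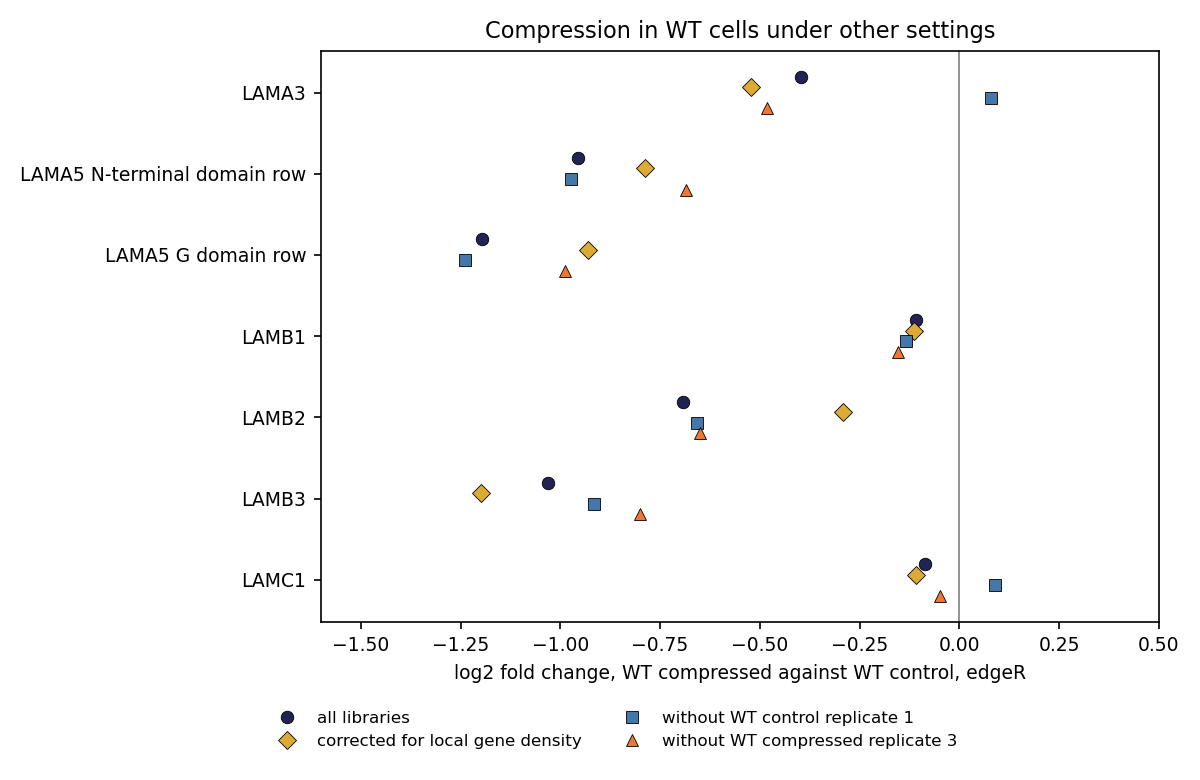
Log2 fold change of WT compressed against WT control (horizontal axis) for 7 laminin rows, with all libraries, after correction for local gene density, and without WT control replicate 1 or WT compressed replicate 3. LAMB3 and both LAMA5 rows lie below -0.60 under all 4 settings, LAMB2 lies at -0.69 with all libraries and at -0.29 with the density correction, and LAMA3 and LAMC1 cross 0 without WT control replicate 1.

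In KO cells no laminin row was called after compression, where 0% of all genes were (0 of 13560 by edgeR, 1 by DESeq2, and 828 at an unadjusted p under 0.05, among them 3 rows of LAMA5). LAMB3 was at 76.3 and 75.5 FPKM in the KO controls and at 63.1, 34.2 and 77.1 FPKM in the KO compressed libraries. Only replicate 2 was far below the controls and replicate 3 was above them, and the log2 change was -0.39 ± 0.30 (SE; 95% interval -1.03 to 0.26). LAMA5 with its rows summed was at 38.9 and 44.0 FPKM in KO controls and at 24.6, 13.9 and 35.4 FPKM in KO compressed libraries. All 3 compressed libraries lay below both controls, and the log2 change was -0.75 ± 0.33 (adjusted p = 0.773). All compressed libraries lay below the controls for 4 of the 10 rows, 3 of them LAMA5 rows and the fourth the upstream LAMB1 row, against 14.0% of all genes.

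The other chains had log2 changes between -0.18 and -0.02 in KO cells. LAMB2 was at 12.2 and 14.5 FPKM in controls and at 12.6, 7.44 and 15.4 FPKM in compressed libraries, with only replicate 2 low (log2 change -0.18 ± 0.25 SE). LAMB1 was at 72.2 and 79.9 FPKM and then 71.3, 75.7 and 71.7 FPKM (log2 change -0.06 ± 0.13). LAMA3 was at 18.2 and 22.9 FPKM and then 19.4, 18.0 and 23.4 FPKM (-0.02 ± 0.29). LAMC1 was at 53.2 and 48.6 FPKM and then 37.5, 62.5 and 48.2 FPKM, so that replicate 2, the lowest KO library for LAMB3 and LAMA5, was the highest for LAMC1 (-0.04 ± 0.21).

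The difference between genotypes in the response to compression was tested as an interaction. No member was called, where 0% of all genes were (0 by edgeR; 650 at an unadjusted p under 0.05, none of them a member). For LAMB3 the change in KO cells minus that in WT cells was 0.64 ± 0.40 on the log2 scale (SE; 95% interval -0.23 to 1.52, adjusted p = 0.939), and for LAMA5 with its rows summed 0.33 ± 0.45 (-0.63 to 1.29). For LAMB1 it was 0.05 ± 0.18 (-0.34 to 0.44), for LAMC1 0.04 ± 0.28, for LAMA3 0.38 ± 0.39 and for LAMB2 0.51 ± 0.34. The fall of LAMB3 passed the threshold in WT cells alone but was not shown to differ between genotypes, and a difference as large as the fall of 1.03 itself lies within the interval.

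Between the genotypes without compression, 0 of the 10 rows were called, against 0.339% of all genes (46 by edgeR, 127 by DESeq2; 0 laminin rows at an unadjusted p under 0.05). LAMB3 was lower in both KO controls (76.3 and 75.5 FPKM) than in all 3 WT controls (90.9 to 120 FPKM), at a log2 change of -0.45 ± 0.30 (SE; adjusted p = 0.797). LAMA5 with its rows summed was also lower in both (38.9 and 44.0 against 51.3 to 63.6 FPKM), at -0.43 ± 0.34. LAMB2 was lower in both too (12.2 and 14.5 against 15.0 to 16.6 FPKM). The share of all genes with both KO controls below all WT controls was not counted, so these separations are descriptions only. LAMC1 was at 53.2 and 48.6 FPKM against 35.9 to 52.8 FPKM, a log2 change of 0.26 ± 0.21. The log2 change was -0.45 ± 0.29 for LAMA3, -0.22 ± 0.25 for LAMB2 and -0.04 ± 0.14 for LAMB1. This comparison shares its WT controls with that of compression in WT cells, so the low values on the other side in both of them are not separate observations of the WT controls. After compression, 0 of the 10 rows were called between KO and WT cells, against 0.789% of all genes (107 by edgeR, 370 by DESeq2; again 0 laminin rows at an unadjusted p under 0.05). LAMB3 averaged 58.2 ± 21.9 FPKM in KO and 50.6 ± 15.1 FPKM in WT compressed cells (SD, n = 3 each), and LAMA5 24.6 ± 10.7 and 26.4 ± 9.59 FPKM. The log2 changes were 0.20 ± 0.27 (SE) for LAMB3, -0.10 ± 0.30 for LAMA5 with its rows summed, 0.30 ± 0.19 for LAMC1, 0.29 ± 0.23 for LAMB2, 0.01 ± 0.12 for LAMB1 and -0.07 ± 0.26 for LAMA3.

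The make-up of the beta and alpha chains is described next, with no test. LAMB3 held 56.5, 51.5 and 48.9% of the summed FPKM of the beta chains in WT controls and 44.0, 41.3 and 27.8% in WT compressed libraries, and LAMB1 held 35.8, 40.5 and 43.0% and then 49.8, 50.8 and 64.5%. By FPKM, LAMB3 was thus the higher of these 2 chains in all 3 WT controls and LAMB1 in all 3 compressed libraries, with a ratio of LAMB3 to LAMB1 of 1.14 to 1.58 and then 0.431 to 0.884. Which chain is higher in WT controls depends on the lengths of the gene models. In counts, LAMB1 was above LAMB3 in WT control replicates 2 (6172 against 5366) and 3 (6817 against 5296). In replicate 1 it was below (5019 against 5413). LAMB2 held 6.25 to 9.39% in all 11 libraries. Of the alpha chains, LAMA5 held 55.2, 77.2 and 70.1% and then 58.2, 63.2 and 41.1%, and the groups overlapped. A share depends on all chains of its class: for LAMB1 the levels themselves overlapped between the groups.

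In KO cells LAMB3 held 47.5 and 44.4% of the beta chains in controls and 43.0, 29.2 and 47.0% in compressed libraries, with overlap. Both KO controls lay below all WT controls in the share of LAMB3, which is a description that shares the WT controls with the values above.

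**Figure D5:**
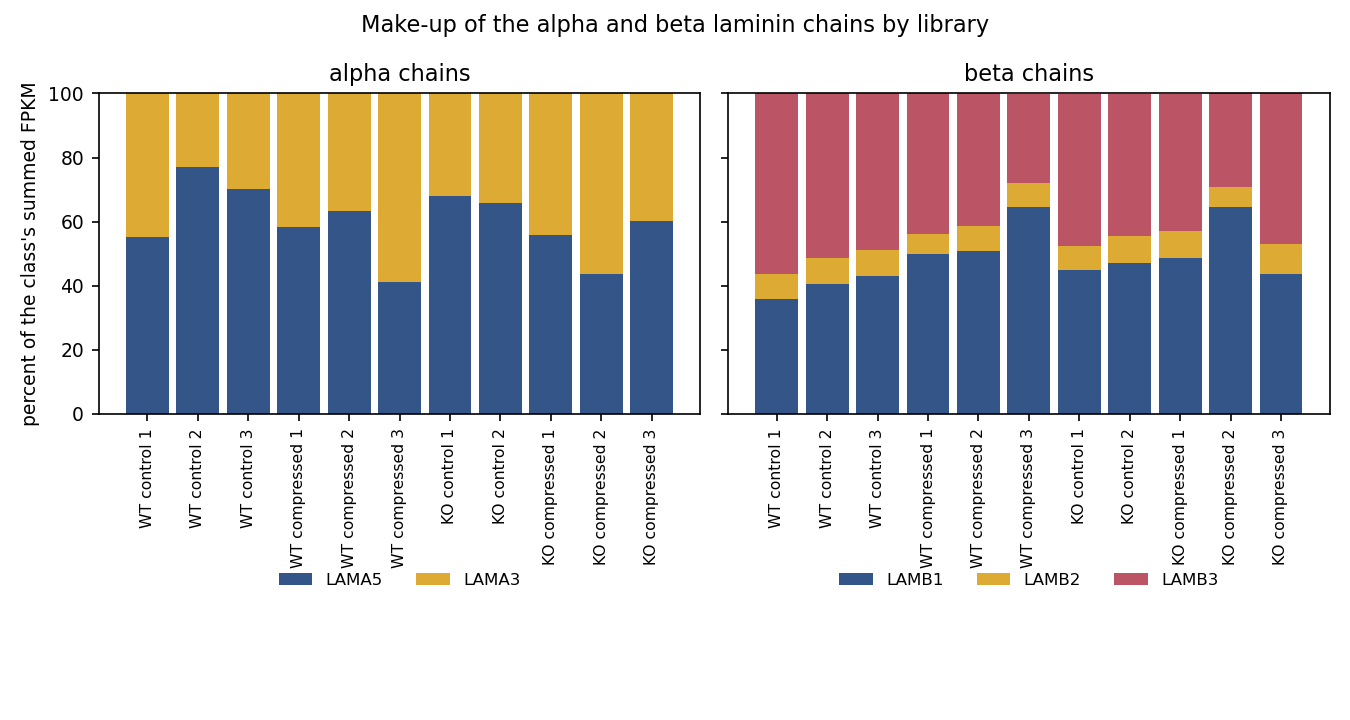
Percent of the summed FPKM of the alpha and of the beta chains (vertical axis, stacked to 100) held by each member detected in the 11 libraries. LAMB3 has the larger part of the beta chains in each WT control and LAMB1 in each WT compressed library.

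Over the 11 libraries LAMB3 correlated with the 4 rows of LAMA5 (Pearson's r of log2 CPM, 0.925 to 0.95) and with LAMB2 (0.888), less with LAMA3 (0.416), and LAMB3 with LAMC1 had an r of -0.104. LAMB1 had no r above 0.347 with the other members. These are descriptions over libraries that share groups, depth and the deviation of gene-dense regions. The genes most like LAMB3 by the same measure were TSC22D4 (0.987), CHRNE (0.983) and FASN (0.978). Those most like LAMA3 were NFKBIZ (0.934), TIMP3 (0.932) and KATNAL1 (0.93), those most like LAMC1 were CREBRF (0.966), FBXO30 (0.92) and TAF1 (0.914), and those most like LAMB1 were NDEL1 (0.914), GRIPAP1 (0.854) and SMARCE1 (0.851). For LAMB2 they were MINK1 (0.987), LTBP4 (0.983) and TROAP (0.973). For the N-terminal domain row of LAMA5 they were TNPO2 (0.982), UBFD1 (0.98) and PRRC2A (0.978), and for its G domain row CHTF18 (0.988), MAPK8IP3 (0.986) and ATXN2L (0.985).

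Of 12 laminin receptors listed, 11 were tested and 2 were called in compressed WT cells, BCAM and ITGB4, both lower. Over all genes 6.25% were called in either direction and 2.40% were called lower. BCAM, a surface receptor for LAMA5, went from 28.0, 34.1 and 24.2 FPKM to 16.9, 18.4 and 11.6 FPKM (log2 change -0.87 ± 0.22 SE, adjusted p = 0.0435, edgeR). ITGB4, the integrin chain of hemidesmosomes, went from 79.7, 96.8 and 89.4 FPKM to 59.4, 63.7 and 55.7 FPKM (-0.56 ± 0.15, adjusted p = 0.047). Neither group pair overlapped. Corrected for local gene density, the log2 change was -0.39 for BCAM (adjusted p = 0.103) and -0.08 for ITGB4 (adjusted p = 0.763). Both calls were also lost without WT control replicate 2 or 3, any WT compressed library or either KO control library (adjusted p 0.051 to 0.193). CD151, a tetraspanin that associates with laminin-binding integrins, had a log2 change of -0.71 ± 0.22 (adjusted p = 0.0602). Of the 11 receptors, 4 had all compressed libraries below all controls, against 20.8% of all genes tested. In 2 receptors all compressed libraries lay above all controls, ITGB1 and ITGA6, which are named here after their values were seen. The share of all genes with this pattern was not counted. ITGB1, the beta chain shared by most laminin-binding integrins, was at 131, 89.0 and 108 FPKM and then 141, 134 and 166 FPKM (0.45 ± 0.18, adjusted p = 0.106). ITGA6, the alpha chain that pairs with ITGB4, was at 19.0, 24.0 and 22.4 FPKM and then 26.8, 26.0 and 33.9 FPKM (0.42 ± 0.25, adjusted p = 0.254). Neither passed the test. The median log2 change over the 11 receptors was -0.32.

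Of 6 hemidesmosome partners, all tested, ITGB4 alone was called, where 6.25% of all genes were called in either direction. COL17A1, a transmembrane collagen that binds the LAMA3 trimer, was at 83.3, 103 and 88.5 FPKM and then 67.4, 77.0 and 66.3 FPKM (log2 change -0.37 ± 0.15 SE, adjusted p = 0.12). The groups of COL17A1 did not overlap, and ITGA6, also of this list, was the partner with all compressed libraries above the controls. The median of the 6 was -0.46.

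Of 24 other basement membrane components, 12 were tested and 1 was called in WT cells, lower, where 2.40% of all genes were called lower. It was FBLN1, a matrix protein that binds laminin, which went from 23.6, 20.0 and 20.7 FPKM to 11.2, 14.6 and 11.7 FPKM (log2 change -0.76 ± 0.20 SE, adjusted p = 0.046, edgeR). FBLN1 was also the 1 component called between KO and WT compressed cells, at 31.3, 19.7 and 27.6 FPKM in KO compressed libraries (log2 change 1.06 ± 0.20, adjusted p = 0.0224). In this comparison 0.789% of all genes were called. The FBLN1 change in KO cells after compression was 0.21 ± 0.22 (adjusted p = 0.831). Its interaction of genotype and compression was 0.97 ± 0.30 (adjusted p = 0.939), so a difference in response between genotypes was not called. The first FBLN1 call was lost without any WT library or either KO control library (adjusted p 0.052 to 0.192), the second without any WT compressed library or KO compressed replicate 1 or 3 (0.0585 to 0.158). HSPG2, the perlecan core protein, was at 36.6, 32.5 and 28.5 FPKM and then 18.7, 22.9 and 11.5 FPKM (-0.86 ± 0.27, adjusted p = 0.0619), and COL18A1, a basement membrane collagen, had a log2 change of -1.27 ± 0.40 with overlapping groups (adjusted p = 0.0652). Without WT control replicate 2, its highest library at 7.45 FPKM, the COL18A1 change was -0.75 (adjusted p = 0.268). The median of the 12 was -0.41.

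The lists of dystroglycan glycosylation, of proteases and of netrins had no called gene in WT cells after compression, where 6.25% of all genes were called. Of 12 genes tested that put the laminin-binding sugar on dystroglycan, POMGNT2 had a log2 change of -0.51 ± 0.25 (SE; adjusted p = 0.176, edgeR), and the median of the list was -0.13. Leaving out WT control replicate 2 brought POMGNT2 to -0.29. Of 5 proteases tested that can act on laminins, PLAT, the tissue plasminogen activator, was at 4.86, 0.730 and 1.36 FPKM in WT controls and at 0.328, 0.397 and 0.303 FPKM in WT compressed libraries. PLAT had a log2 change of -2.72 ± 0.80 (adjusted p = 0.0547), with its highest value in WT control replicate 1, and of -1.59 (adjusted p = 0.141) without that library. The log2 change was -0.61 ± 0.26 for HPN, a membrane-bound serine protease (adjusted p = 0.129; -0.14 and 0.586 after correction for local gene density), and -0.47 ± 0.23 for BMP1, which trims matrix proteins (0.173). Of 2 netrins tested, which share the laminin N-terminal fold, NTN4 had a log2 change of 0.64 ± 0.38 and NTN1 of -0.45 ± 0.39, neither called. The change of NTN1 was -0.23 after correction for local gene density and -0.25 without WT compressed replicate 3. In KO cells after compression no gene of the lists of receptors, hemidesmosome partners, basement membrane components, glycosylation, proteases or netrins was called.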

How the data were processed

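RNA was measured by sequencing of polyadenylated RNA. Per the submitters' processing notes, CASAVA, FastQC and HISAT2 version 2.0.5 were used with the CanFam3.1 build; neither the gene counter nor the annotation release is stated. The deposited tables held raw counts (whole numbers, 1 row a gene) and the authors' FPKM, which are those counts per kilobase of gene length per 1000000 of an effective library size (0.964 to 1.049 times the total). Depth was 10420214 to 17999623 counts per library, and the members tested held 1 to 7983. Groups came from sample titles. Symbols came from gene names (17933 rows) or, where these were placeholders, from the protein match (5701 rows). The kit's strand setting is not given, so overlapping genes cannot be told apart. A summed LAMA5 level is the summed count over the summed length.

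Counts were tested with edgeR 4.0.16 in R 4.3.3: filterByExpr, TMM scaling, 1 quasi-likelihood fit of 4 groups over 11 libraries (7 residual degrees of freedom), two-sided, Benjamini-Hochberg over 13560 genes, threshold 0.05. The code was tested on simulated data. Alternatives used DESeq2 1.42.0, limma 3.58.1 on log2(FPKM + 1) and log2(FPKM + 0.1), RLE scaling, library size alone, no filter, 1 CPM in 3 libraries, a replicate block, 2 groups alone and each library left out. Added after seeing the data were a loess correction for coding genes within 1 Mb, summing of rows of 1 gene, and leaving out WT compressed replicate 3 with KO compressed replicate 2.

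Members and lists were chosen with earlier results of these data known. Named genes are all members, LMNA, the other laminins, up to 3 genes of smallest p per list, called list genes, and the 3 genes most correlated with a member; where a symbol had several rows, that with more counts was used. Some genes that this rule names are not reported here. Sequences were not used here.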

Additional observations from a re-analysis of the deposited data

How the results depend on the processing

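In WT cells after compression the edgeR call count was 848 genes, 2 of them laminin rows. It was 2494 genes and 6 rows by DESeq2, 1754 and 6 without the filter, 2069 and 6 with the 2 groups alone, 499 and 1 after correction for local gene density, 0 and 0 by limma on log2(FPKM + 1) and 1 and 0 on log2(FPKM + 0.1). The laminin count after the density correction leaves out the LAMA5 scaffold rows, among them the called domain IV row, since they have no density value. LAMB3 kept its call there. Library size alone left 1 laminin row, and leaving out WT compressed replicate 3 with KO compressed replicate 2 left 5. With 1 library left out in turn, the counts ran from 0 to 3066 genes and from 0 to 6 rows, with 1 or 0 genes called without WT control replicate 2 or 3, any WT compressed library or either KO control library, and 3066 without KO compressed replicate 2. In KO cells after compression DESeq2 and limma on log2(FPKM + 1) each called 1 gene. Between KO and WT controls (46 genes) the count was 127 by DESeq2, 90 without the filter, 16 and 8 by limma at the 2 pseudocounts, 111 without the 2 libraries that stood apart, and 6 to 106 with 1 library left out. Between KO and WT compressed cells (107 genes) it was 370, 201, 59, 50, 64 with the 2 groups alone, and 39 to 349 with 1 library left out. The interaction gave 0 to 1 gene with 1 library left out.

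The replicate block gave 0 genes and 0 laminin rows in WT cells, 15 genes between the controls and 53 between the compressed groups. Between same-numbered libraries, deviations from the group means had correlations from -0.349 to 0.201. With 2 or 3 libraries a group, these values cannot decide whether the numbers pair the samples, and the labels do not say.

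In WT cells after compression, LAMB3 and the LAMA5 domain IV row kept their direction under all alternatives run. Directions turned for rows that were not called, as follows. Without the 2 libraries that stood apart these were, after compression in KO cells, LAMA3 (0.073) and LAMB2 (0.078), between the compressed groups LAMA3 (0.11), and in the interaction LAMC1 (-0.19) and the upstream LAMB1 row (-0.30). Between the compressed groups the G domain row of LAMA5 went to -0.023 and -0.027 by limma, -0.024 with the density correction and -0.10 with rows summed, LAMB1 to -0.013 by library size alone and the upstream LAMB1 row to 0.21 on log2(FPKM + 0.1). LAMB2 in KO cells went to 0.0098 with the density correction, and the upstream LAMB1 row in the interaction to -0.005 by library size alone. With 1 library left out, log2 changes ran as follows. In WT cells LAMA3 ran from -0.63 to 0.080 and LAMC1 from -0.20 to 0.089. In KO cells LAMA3 ran from -0.18 to 0.16, LAMB1 from -0.14 to 0.012, LAMB2 from -0.42 to 0.061 and LAMC1 from -0.25 to 0.12. Between controls LAMA3 ran from -0.67 to 0.031 and LAMB1 from -0.11 to 0.037. Between compressed groups LAMA3 ran from -0.19 to 0.016, LAMB1 from -0.022 to 0.055, its upstream row from -1.09 to 0.16, LAMB3 from -0.061 to 0.47, and the LAMA5 rows from -0.27 to 0.41 (G domain), -0.57 to 0.082 (N-terminal domain), -0.63 to 0.15 (domain I) and -0.37 to 0.17 (domain IV). In the interaction LAMA3 ran from -0.10 to 0.61, LAMB1 from -0.027 to 0.12, its upstream row from -0.63 to 0.62, LAMC1 from -0.17 to 0.21, the N-terminal domain row from -0.15 to 0.50 and the domain I row from -0.010 to 0.77. The causes were not tested.

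The groups hold 2 or 3 libraries each, and a row with 1 to 99 counts allows no firm statement.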
